A study of Mus musculus with 2 samples.

Results

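The genes described here are 9 genes used to follow the passage between epithelial and mesenchymal states: the transcription factors Zeb1, Zeb2, Snai1 and Snai2, the intermediate filament vimentin (Vim), the matrix protein fibronectin (Fn1), the cadherins Cdh1 and Cdh2, and the neural cell adhesion molecule Ncam1. They were chosen by name, with earlier results of these data known, and are 9 of the 55415 genes in the deposited count tables, where their identifiers are ENSMUSG00000024238, ENSMUSG00000026872, ENSMUSG00000042821, ENSMUSG00000022676, ENSMUSG00000026728, ENSMUSG00000026193, ENSMUSG00000000303, ENSMUSG00000024304 and ENSMUSG00000039542 in that order. Because the difference between the libraries was known when they were chosen, that difference is given as a description, with no test.

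The study counted transcripts, as unique molecular identifiers (UMIs), in single biliary epithelial cells of mouse liver with split-pool barcoding of fixed cells. There was 1 library of genotype Sox9cKO, a conditional knockout of the transcription factor Sox9, and 1 of genotype Sox9con, its control. The sources used here do not give the deleted part of Sox9, the Cre driver, or the age, sex and number of animals. Each library was spread over first-round barcoding wells, 5 for Sox9cKO (A11, A12, B1, B2, B3) and 4 for Sox9con (D9, D10, D11, D12), so that wells are parts of 1 library and not replicates, and well and genotype cannot be told apart.

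The deposited tables held 2740 and 3622 cells with 14856321 and 12811243 UMIs, and the libraries shared 0 cell barcodes. After filtering and clustering, 2602 and 3372 cells fell into biliary clusters, with a median of 5125 UMIs per cell for Sox9cKO and 3227 for Sox9con, and 83 and 115 into an endothelial-like cluster. Clusters were named by marker genes at a CPM (UMIs of a gene per 1000000 UMIs) of 50 or more. The marker counts at that level follow from the naming and do not check it. In each library biliary cells had 11 of 13 biliary and 0 of 14 endothelial markers at that level. Endothelial-like cells had 14 of 14 endothelial and 8 of 13 biliary markers. Sox9 itself was at 122 CPM under Sox9cKO and 146 CPM under Sox9con, a log2 ratio of -0.25, and its wells overlapped (102 to 145 against 74.3 to 220 CPM). Its transcript therefore did not separate the libraries, and a count outside the deleted part would check nothing. The libraries are called here by their labels. With 1 library per genotype no comparison between them has a test, and every interval given below is an exact 95% interval that covers counting error alone.

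In the passage from an epithelial to a mesenchymal state, zinc finger repressors of the Snail and ZEB families bind E-boxes and silence Cdh1, which encodes E-cadherin, the adhesion molecule of epithelial junctions. Cells in that passage commonly gain N-cadherin (Cdh2), vimentin and fibronectin, while endothelial cells carry Zeb1, Zeb2 and Vim as part of their ordinary program. Biliary epithelial cells line the bile ducts and are marked by Epcam and keratin 19 (Krt19), and Ncam1 is known from reactive bile ductules.

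The ZEB factors are also held in check in epithelia by microRNAs of the miR-200 family, which pair with the 3′ untranslated regions of their transcripts. The mature sequences are shown because they fall into groups by shared seed. All 5 family members were found in RefSeq (GRCm38.p6), and capitals mark the seed, bases 2 to 8, 5′ to 3′. The first 3 share the seed AAUACUG and the last 2 the seed AACACUG.
miR-200b-3p: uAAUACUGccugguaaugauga
miR-200c-3p: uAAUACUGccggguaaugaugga
miR-429-3p: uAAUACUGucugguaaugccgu
miR-200a-3p: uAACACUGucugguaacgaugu
miR-141-3p: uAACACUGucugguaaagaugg

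The 3′ untranslated region of Zeb2 in the reference annotation (GRCm38, minus strand) is 4941 bases long and holds the complement of the first seed, CAGTATT, 5 times and that of the second, CAGTGTT, 4 times. Of 1058 genes with such a region of 4000 to 6000 bases, 37.3% held CAGTATT at least once, 0.284% held it 5 times or more, and 1.42% held CAGTGTT 4 times or more. A match is a description of the letters and not a measured site. Zeb2 was 104-fold (Sox9cKO) and 430-fold (Sox9con) higher in endothelial-like than in biliary cells, over only 113 and 27 biliary UMIs. A link between the matches and this difference was not tested. A few of the matches are shown, with the complement of the seed in capitals, because both complements recur in this region.
chr2:44988350-44988372: attttgtaCAGTGTTaaggccta
chr2:44988166-44988188: ccatacatCAGTATTttattatt
chr2:44988101-44988123: cagtgcatCAGTATTacgattcc
chr2:44987654-44987676: aattttgtCAGTATTacaccaaa
chr2:44987520-44987542: gtagtgtaCAGTATTatagttct
The genes that encode the 5 microRNAs were listed with 0 UMIs in both libraries, and this assay does not capture mature microRNAs, so their level in these cells was not measured.

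In biliary cells, 5 of the 9 members were at least 2-fold higher in the Sox9cKO library than in the Sox9con library: Zeb1, Zeb2, Fn1, Cdh2 and Ncam1. Of the 9328 genes with at least 200 UMIs in both libraries together, 2.18% were at least 2-fold higher and 1.8% at least 2-fold lower, and since the members were chosen with this contrast known nothing is read from that difference. The same 5 members had every Sox9cKO well above every Sox9con well, against 7.58% of all such genes, and 0 members had every Sox9cKO well below every Sox9con well, against 8.32%. At any size 41.4% of those genes were higher in the Sox9cKO library. Scaled by the size factors of DESeq2 the genes past 2-fold were 246 higher and 113 lower, in place of 203 and 168, and without well D9 386 were lower. A total of 5 members reached 200 UMIs (Zeb1, Fn1, Cdh1, Cdh2 and Ncam1), and Zeb2, Vim, Snai1 and Snai2 did not. The median log2 ratio was 1.11 over the 9 members and -0.07 over all genes of 200 UMIs, whose ratios lay between -0.92 and 0.93 for the middle 95%.

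Zeb1, a repressor of epithelial genes, was at 181, 207, 190, 170 and 167 CPM in Sox9cKO wells A11, A12, B1, B2 and B3. In Sox9con wells D9, D10, D11 and D12 it was at 105, 76.0, 82.3 and 72.5 CPM. The wells did not overlap, and D9, the deepest control well with a median of 4346 UMIs per cell, stood nearest to the Sox9cKO wells. Summed, Zeb1 had 2656 UMIs (185 CPM, 178 to 192) against 1042 (85.5 CPM, 80.4 to 90.9), a log2 ratio of 1.11 (1.01 to 1.22).

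Zeb2, its paralog, was sparse in biliary cells, with 113 UMIs under Sox9cKO and 27 under Sox9con. Its wells held 19, 29, 12, 34 and 19 UMIs in A11, A12, B1, B2 and B3, with B1 lowest at 4.44 CPM and B2 highest. The control wells held 13, 7, 4 and 3 UMIs in D9 to D12, or 0.994 to 3.33 CPM, so the wells did not overlap. The log2 ratio was 1.81 (1.21 to 2.49). A few cells carried much of the Sox9cKO sum: 5 cells with 5 or more UMIs held 51 of the 113, or 45.1%. The cell with the most, in well B2, had 21 Zeb2 UMIs, 7 UMIs of immune marker genes and 0 of Cdh1, Epcam and Krt19, and a cell of well A12 with 7 Zeb2 UMIs had the same 0 counts and 7 immune marker UMIs. Without the 5 cells of each library with the most Zeb2 UMIs, an alternative chosen after seeing the data, the log2 ratio was 1.45.

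The Snail factors were close to absent from biliary cells. Snai1 had 3 UMIs under Sox9cKO and 7 under Sox9con (log2 ratio -1.31, -4.04 to 0.67). Snai2 had 0 and 2 UMIs, and a count of 0 in the Sox9cKO library allows up to 0.257 CPM, the upper end of its interval. No direction can be read for either at this depth.

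Vim, the filament protein of mesenchymal cells, had 21 UMIs under Sox9cKO and 25 under Sox9con, or 1.46 and 2.05 CPM. Well A11 was highest at 3.30 CPM and A12 lowest at 0.786 CPM, with the control wells between them at 1.53 to 2.81 CPM, so the wells overlapped. The log2 ratio of -0.48 had an interval of -1.40 to 0.41, and a difference in Vim was not detectable at this depth.

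Fn1 encodes fibronectin, a secreted matrix protein that epithelia can also make. It was at 384, 455, 496, 673 and 480 CPM in A11, A12, B1, B2 and B3, with B2 highest. In D9, D10, D11 and D12 it was at 223, 102, 119 and 147 CPM, with D9 highest, and no control well reached a Sox9cKO well. The sums were 7187 and 1888 UMIs (500 and 155 CPM), a log2 ratio of 1.69 (1.62 to 1.76).

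Cdh1 differed little. Its Sox9cKO wells lay between 1401 CPM in A11 and 1620 CPM in A12, and its control wells between 1418 CPM in D11 and 2026 CPM in D9. The wells overlapped, with the Sox9cKO well higher in 7 and lower in 13 of 20 pairs of wells. The sums gave 1532 and 1725 CPM, a log2 ratio of -0.17 (-0.20 to -0.14), and scaled by the size factors of DESeq2, which move every log2 ratio by 0.10, it was -0.07.

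Cdh2, which encodes N-cadherin, was at 34.4, 40.4, 26.6, 28.6 and 34.5 CPM in A11, A12, B1, B2 and B3. It was at 14.8, 6.74, 11.2 and 13.2 CPM in D9, D10, D11 and D12. The wells did not overlap. The sums were 480 and 143 UMIs, a log2 ratio of 1.51 (1.24 to 1.79).

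Ncam1, an adhesion molecule of the immunoglobulin superfamily, was at 217, 191, 180, 169 and 197 CPM in A11, A12, B1, B2 and B3. In D9, D10, D11 and D12 it was at 24.6, 22.8, 24.8 and 27.2 CPM. It had 2723 and 302 UMIs (190 and 24.8 CPM), a log2 ratio of 2.93 (2.76 to 3.11), and 99.7% of the genes of 200 UMIs had a lower ratio.

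**Figure D1:**
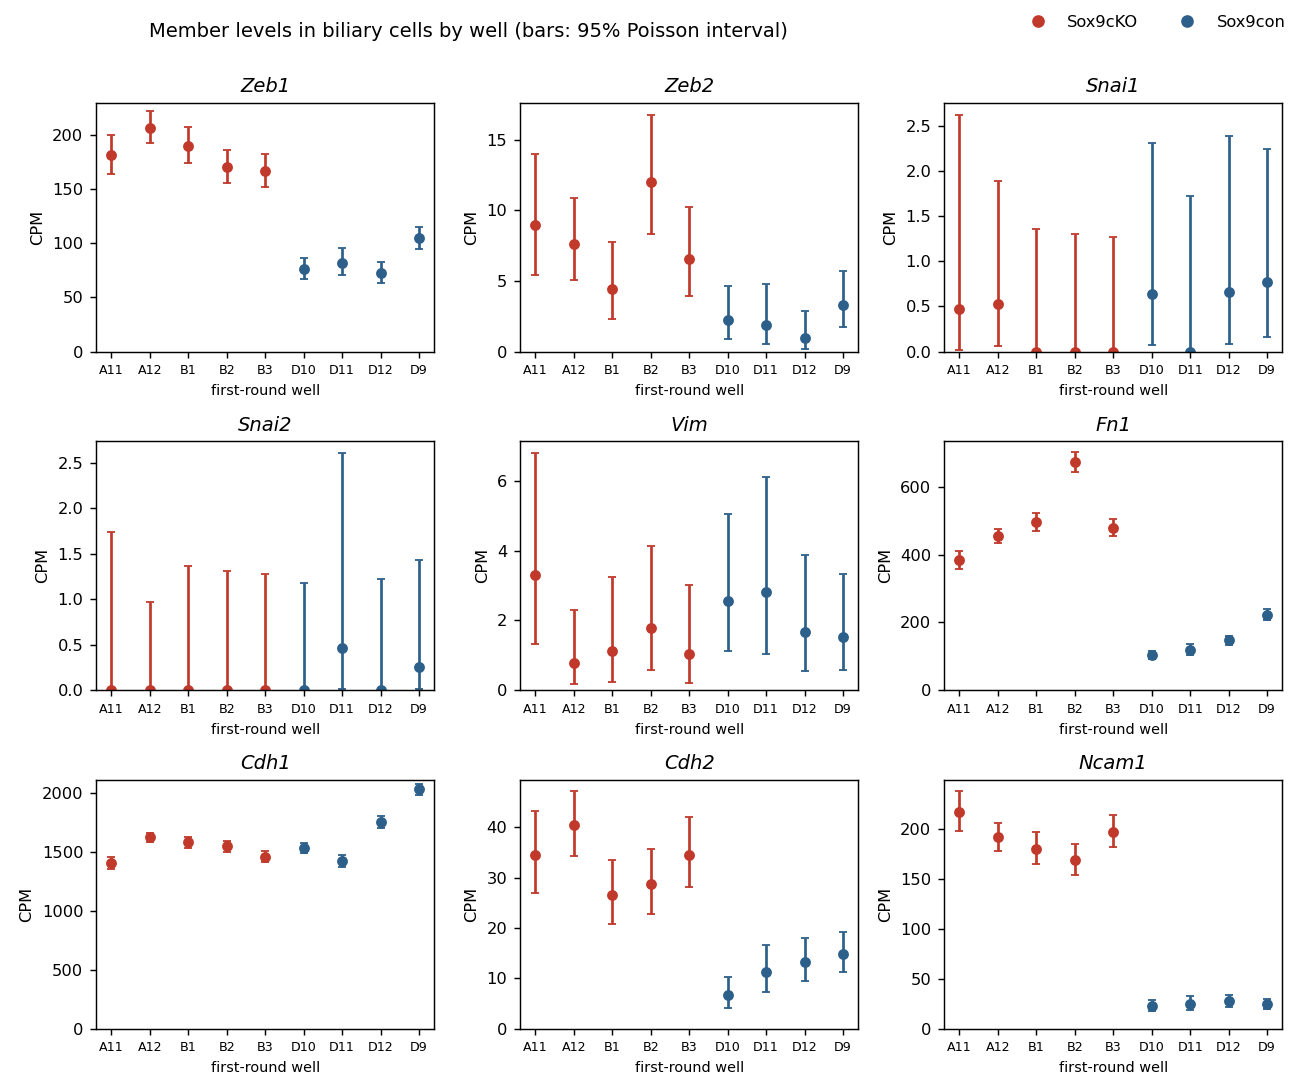
CPM of each of the 9 members in biliary cells (y axis, from 0) for each first-round well (x axis), red for Sox9cKO and blue for Sox9con, with bars for the 95% Poisson interval. Zeb1, Zeb2, Fn1, Cdh2 and Ncam1 are higher in all 5 Sox9cKO wells than in all 4 Sox9con wells, while Cdh1, Vim, Snai1 and Snai2 overlap.

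Every sublibrary, a pool of cells made into 1 sequencing library, held cells of both genotypes. Zeb1, Zeb2, Fn1, Cdh2 and Ncam1 were higher in the Sox9cKO cells in 8 of 8 sublibraries. Sublibraries divide the same cells and are not replicates, and the share of all genes higher in 8 of 8 was not counted. The log2 ratios within sublibraries ran from 0.90 to 1.91 for Zeb1, 0.06 to 3.04 for Zeb2, 1.53 to 1.84 for Fn1, 0.43 to 2.68 for Cdh2 and 2.22 to 3.25 for Ncam1. Cdh1 was lower in 7 of 8. The epithelial markers Epcam and Krt19 were lower in 8 of 8, at 823 against 1129 CPM (log2 ratio -0.46) and 934 against 1626 CPM (log2 ratio -0.80), though their wells overlapped because D9 had the lowest level of both among the control wells, 804 and 1112 CPM.

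**Figure D2:**
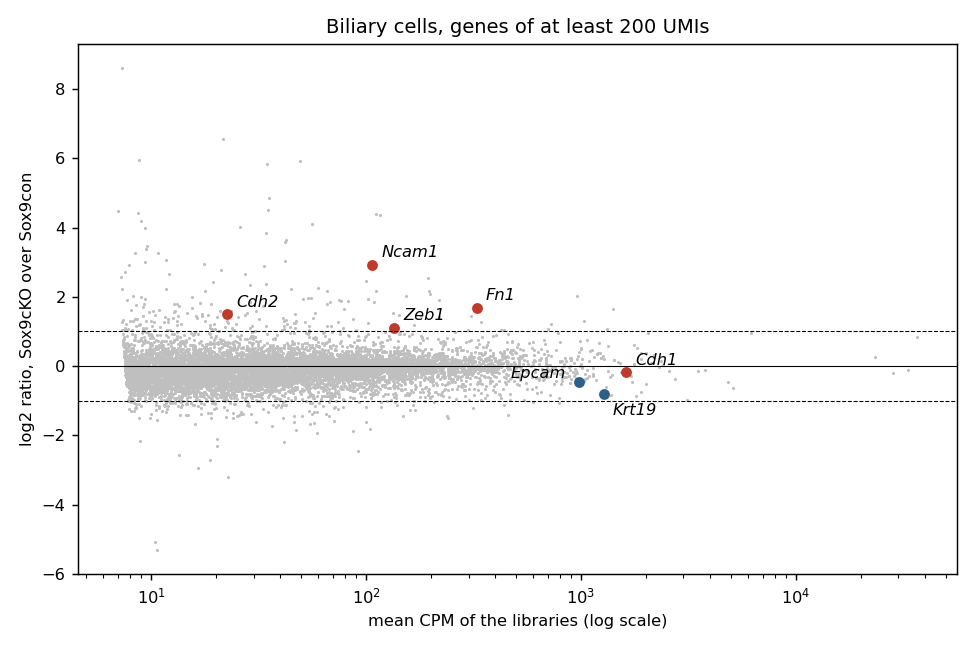
Log2 ratio of Sox9cKO over Sox9con in biliary cells (y axis) against the mean CPM of both libraries on a log axis, for the 9328 genes of at least 200 UMIs (grey), with the 5 members that reached it in red and Epcam and Krt19 in blue. Dashed lines mark 2-fold. Zeb1, Fn1, Cdh2 and Ncam1 lie above the upper line and Cdh1 near 0.

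The share of biliary cells with a UMI was compared after each cell was thinned to 2000 UMIs, which left 2463 and 2806 cells and set aside 139 and 566 shallower ones. Fn1 was detected in 43.9% (41.9 to 45.9) of Sox9cKO cells and 21.0% (19.5 to 22.5) of Sox9con cells. Ncam1 was detected in 22.2% (20.6 to 23.9) and 4.35% (3.62 to 5.17), and Zeb1 in 17.3% (15.8 to 18.8) and 11.7% (10.5 to 12.9). Cdh2 was rare in both, in 3.86% (3.13 to 4.69) and 2.03% (1.54 to 2.62). These are the 4 members whose intervals lay apart with Sox9cKO higher. The share of all genes with such intervals apart was not counted, so nothing is read from that number. Cdh1 was detected in 91.7% and 92.4%, with overlapping intervals, and so was Zeb2 in 0.771% and 0.463%. Unthinned, the shares were 28.4% and 16.9% for Zeb1, 61.0% and 29.7% for Fn1, 6.73% and 2.97% for Cdh2 and 37.3% and 6.02% for Ncam1.

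Among Sox9cKO cells with a UMI, 161 of 740 Zeb1 cells held 5 or more Zeb1 UMIs, against 30 of 571 Sox9con cells. For Fn1 it was 494 of 1587 cells against 59 of 1001, and for Ncam1 157 of 971 against 2 of 203. These counts are unthinned, and the Sox9cKO cells were deeper.

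Endothelial-like cells gave the members another order. Zeb1 was at 1208 CPM in the endothelial-like cells of the Sox9cKO library and 1578 CPM in those of the control, log2 ratios over biliary cells of 2.71 (2.53 to 2.88) and 4.20 (4.05 to 4.36). Zeb2 was at 824 and 987 CPM, log2 ratios of 6.70 and 8.75. Vim was at 182 and 143 CPM (log2 ratios 6.90 and 6.07), and Snai1 at 31.7 and 51.6 CPM (6.84 and 6.30). Snai2 had 3 and 1 UMIs there. In each library 5 of 9 members were at least 2-fold higher in endothelial-like than in biliary cells, where 11.9% of 7535 genes were under Sox9cKO and 12.2% of 7364 under Sox9con. Of these 5 members, Zeb1 and Zeb2 reached 200 UMIs over both cell types, and Snai2 in the Sox9con library rested on 1 against 2 UMIs, with an interval of -1.76 to 8.39.

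The remaining 4 members were at least 2-fold lower in endothelial-like cells, where 33.4% of genes were under Sox9cKO and 31.2% under Sox9con, though the interval for Cdh2 in the Sox9cKO library reached 0.29. Fn1 was at 43.6 and 51.6 CPM, log2 ratios over biliary cells of -3.52 and -1.58. Cdh1 was at 170 and 172 CPM (log2 ratios -3.17 and -3.32). Epcam and Krt19 were also counted there, at 91.1 and 141 CPM and at 115 and 141 CPM. Ncam1 had 2 UMIs in each library. Cdh2 had 4 UMIs, all in well B2, under Sox9cKO and 0 under Sox9con, where 0 allows up to 10.6 CPM, the upper end of its interval. The 8 and 7 mesenchymal-like cells had Zeb1 at 1967 and 3206 CPM, Zeb2 at 1393 and 2137 CPM and Vim at 628 and 450 CPM (23 and 8 UMIs), and Cdh1 at 2 UMIs and 1 UMI.

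**Figure D3:**
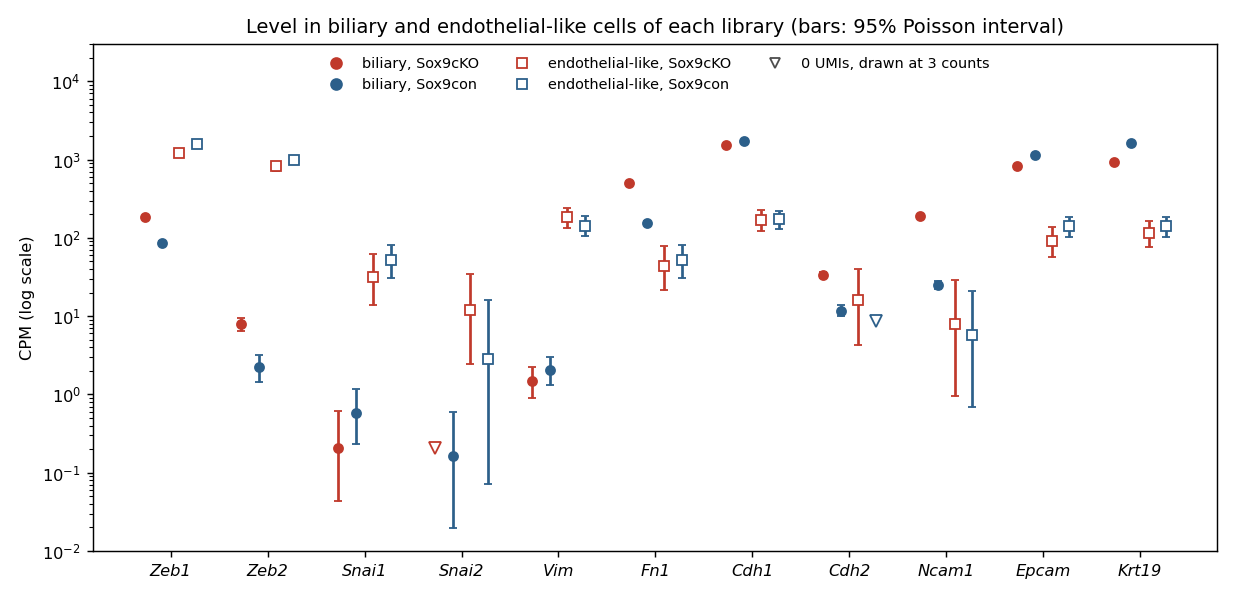
CPM on a log axis of the 9 members, Epcam and Krt19 (x axis) in biliary cells (filled circles) and endothelial-like cells (open squares) of the Sox9cKO (red) and Sox9con (blue) libraries, with 95% Poisson intervals, which are hidden where smaller than the symbol. Open triangles stand for 0 UMIs at the level of 3 counts. Zeb1, Zeb2, Snai1 and Vim are higher in endothelial-like cells in both libraries, and Fn1, Cdh1, Epcam and Krt19 are lower.

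Within endothelial-like cells the summed Zeb1 and Zeb2 were lower in the Sox9cKO library, with log2 ratios of -0.38 (-0.59 to -0.18) and -0.26 (-0.52 to -0.01), where both were higher in biliary cells. A single Sox9con cell held 95 of the 550 control Zeb1 UMIs, against at most 19 in a Sox9cKO cell. Without the cell of each library with the most Zeb1 UMIs, an alternative chosen after seeing the data, the log2 ratio for Zeb1 was -0.20 (-0.42 to 0.01). With each cell thinned to 1000 UMIs the ratios were -0.13 (-0.47 to 0.20) for Zeb1 and -0.15 (-0.58 to 0.27) for Zeb2, and thinned to 2000 UMIs, without the 29 and 44 shallower cells, -0.49 (-0.80 to -0.18) and -0.56 (-0.99 to -0.16). The unthinned share of endothelial-like cells with a Zeb1 UMI was 81.9% (72.0 to 89.5) under Sox9cKO and 78.3% (69.6 to 85.4) under Sox9con, with overlapping intervals. The endothelial-like wells overlapped, at 976 to 1346 CPM in Sox9cKO wells against 988 to 2276 CPM in Sox9con wells for Zeb1. Biliary cells with 3 or more UMIs of endothelial markers made up 1.65% of the Sox9cKO and 1.42% of the Sox9con biliary cells, and endothelial markers summed to 35.8 and 52.8 CPM in biliary cells, higher in the control library. Without those cells, an alternative chosen after seeing the data, the biliary log2 ratio was 1.10 for Zeb1 and 1.90 for Zeb2. Over all kept cells, endothelial-like cells included, Zeb2 was lower in the Sox9cKO library, with a log2 ratio of -0.37, and Zeb1 was higher by 0.65.

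Among biliary cells the members were unevenly spread over clusters, which were built without the members, Epcam, Krt19 and Sox9. Cluster 5, led by Hp, Gc and Fst, held 546 Sox9cKO cells and 3 Sox9con cells, and cluster 2, led by Slit3, Ces1c and Ptgs2, held 909 and 12. Clusters 3 and 4 were mostly of the Sox9con library, with 728 and 724 of its cells against 68 and 28. A cluster mostly of 1 library may be that library and not a type of cell.

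Cluster 5 held 24.8% of the UMIs of Sox9cKO biliary cells, but 86.2% of the Cdh2, 58.7% of the Ncam1, 56.6% of the Zeb2, 49.3% of the Fn1 and 42.5% of the Zeb1 UMIs. Cdh1 was spread with the total, at 21.4%, while Krt19 and Epcam were under it, at 8.27% and 14.7%. In that cluster Cdh2 was at 116 CPM, Ncam1 at 448 CPM, Fn1 at 992 CPM and Zeb1 at 316 CPM, and Krt19 at 311 CPM. In cluster 2 they were at 7.80, 175, 493 and 189 CPM, with Krt19 at 1084 CPM. Hepatocyte markers summed to 1080 CPM in cluster 5 and 977 CPM in cluster 2, against 93.7 CPM in the Sox9cKO cells of cluster 0. In the Sox9con cells they summed to 1016 CPM in cluster 3 and 1269 CPM in cluster 7. The part of hepatocyte transcripts in the member levels was not tested. Macrophage markers summed to 72.6 CPM and mesenchymal markers to 184 CPM in cluster 5, against 28.6 and 278 CPM in cluster 2, and their part was not tested either.

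Among the Sox9con clusters of at least 100 cells Cdh2 was highest in clusters 3 and 7, at 34.6 and 31.4 CPM, and cluster 3 held 59.4% of its UMIs. Ncam1 was at 44.9 CPM in cluster 1 and 39.0 CPM in cluster 4, and 4.48 CPM in cluster 3. Cluster 3 also had the lowest Krt19 among these clusters, 515 CPM. Without cluster 5, an alternative chosen after seeing the data, Cdh2 was lower in the Sox9cKO library, with a log2 ratio of -0.93, while Zeb1 was at 0.72, Fn1 at 1.13, Zeb2 at 1.02 and Ncam1 at 2.07. The Zeb2 ratio still included 2 Sox9cKO cells of cluster 1 that held 28 Zeb2 UMIs. Each had 7 immune marker UMIs and 0 of Cdh1, Epcam and Krt19, and the ratio was not computed without them. Of the 113 Zeb2 UMIs of Sox9cKO biliary cells, 64 were in cluster 5 and 28 in these 2 cells, against 27 in Sox9con biliary cells. The Zeb2 ratio of 1.02 is therefore not read as a difference in the remaining cells. In cluster 0 Zeb2 had 5 UMIs under Sox9cKO and 6 under Sox9con (-0.90, -3.03 to 0.99).

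Both libraries had 100 or more cells in clusters 0, 1 and 6. In cluster 0 (723 and 504 cells), Zeb1 was at 118 and 69.9 CPM, a log2 ratio of 0.75 (0.49 to 1.02), Fn1 at 171 and 68.5 CPM (1.32, 1.06 to 1.58) and Ncam1 at 26.2 and 11.1 CPM (1.22, 0.59 to 1.93). Cdh2 there had 13 and 9 UMIs (-0.18, -1.53 to 1.22). In cluster 1 Fn1 had a log2 ratio of 0.96 (0.66 to 1.25) and Ncam1 of 0.11 (-0.60 to 0.75), and in cluster 6 Fn1 had 1.29 (0.60 to 2.05) and Zeb1 0.07 (-1.14 to 1.24). Fn1 was thus higher with its interval above 0 in all 3 clusters, and Zeb1 and Ncam1 in cluster 0. Zeb2 in cluster 1 was at 63.1 and 1.63 CPM, of which 28 of the 30 Sox9cKO UMIs came from 2 cells, those with immune marker UMIs described above.

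**Figure D4:**
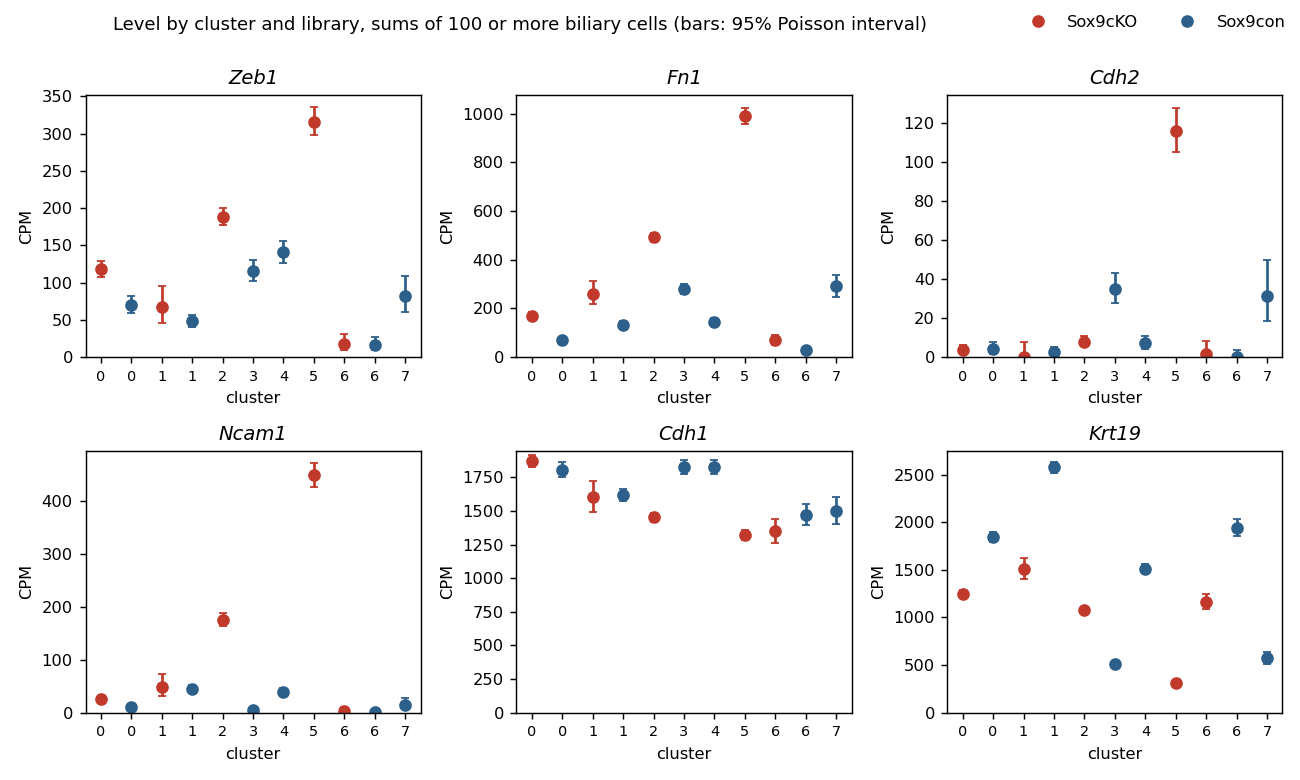
CPM of Zeb1, Fn1, Cdh2, Ncam1, Cdh1 and Krt19 (y axes, from 0) by biliary cluster (x axis) for each library with at least 100 cells in it, red for Sox9cKO and blue for Sox9con, with 95% Poisson intervals. Zeb1, Fn1, Cdh2 and Ncam1 are highest and Krt19 lowest in the Sox9cKO cells of cluster 5, and Cdh1 varies less.

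Over the 11 sums of a cluster and library, the genes most like each member in log2(CPM + 10) included Adamts9 and Nsun2 for Zeb1 (Pearson r 0.98 and 0.95), and Bmp1, Pard3 and Fyn for Fn1. They included Lhfp, Ahsg and Tmem132a for Cdh2, Flt4, Basp1 and Sncg for Ncam1, and Irgq and Elovl7 for Cdh1. The 11 points share libraries and depth, and Zeb1 and Fn1 correlated at r = 0.86 over them.

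The members were also detected together in cells, counted over all biliary clusters pooled. In thinned Sox9cKO cells, Fn1 was found in 58.0% (53.1 to 62.7) of the 426 cells with a Zeb1 UMI and in 40.9% (38.8 to 43.1) of the cells without. Ncam1 was found in 32.5% (29.7 to 35.4) of Fn1 cells and 14.3% (12.5 to 16.2) of cells without Fn1, and in 49.5% (39.1 to 59.9) of the 95 Cdh2 cells against 21.2% (19.5 to 22.9). In Sox9con cells the same pairs overlapped, with Fn1 in 24.4% (19.8 to 29.4) of Zeb1 cells and 20.5% (18.9 to 22.1) of the rest. The clusters themselves differed in these shares. Among thinned Sox9cKO cells Fn1 was found in 73.2% of cluster 5 and 17.7% of cluster 0, and Ncam1 in 48.2% and 4.17%. Pooled pairs therefore cannot separate detection together within a cluster from differences between clusters, and the former was not tested.

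Cells with a member UMI held Epcam and Krt19 less often in the Sox9cKO library. A Krt19 UMI was found in 58.5% (53.6 to 63.2) of Zeb1 cells and 77.1% (75.2 to 78.9) of cells without Zeb1. For Fn1 it was 64.3% (61.4 to 67.2) against 81.3% (79.2 to 83.4), for Ncam1 62.6% (58.4 to 66.7) against 77.1% (75.1 to 78.9), and for Cdh2 34.7% (25.3 to 45.2) against 75.4% (73.6 to 77.1). Epcam followed, with 68.3% against 77.9% for Zeb1, 71.3% against 80.0% for Fn1, 69.7% against 78.1% for Ncam1 and 56.8% against 77.0% for Cdh2, all with intervals apart. Unthinned, the Epcam intervals overlapped for all 4 members, with 93.3% against 92.3% for Fn1. All these shares lay above those of thinned endothelial-like cells of the same library, 13.0% for Krt19 and 18.5% for Epcam, whose median depth was lower before thinning. Without cluster 5 the intervals lay apart for 1 of the 4 members with Krt19, Zeb1, and for 0 with Epcam. The gaps were also smaller there, with Krt19 at 82.7% against 83.6% for Ncam1 and 80.3% against 85.3% for Fn1. Within the 5 clusters of at least 100 thinned Sox9cKO cells, the intervals lay apart in 1 of 18 comparisons with Krt19, Zeb1 in cluster 0 (71.6% against 88.9%), and in 0 of 18 with Epcam. At any size the share was lower in member cells in 13 of 18 comparisons for Krt19 and 10 of 18 for Epcam. In cluster 5 Krt19 was at 31.0% against 41.7% for Zeb1, 35.5% against 46.8% for Fn1 and 27.8% against 40.4% for Cdh2. For Ncam1 it was at 39.4% against 37.7%, and all these intervals overlapped. In cluster 2 Epcam was found in 76.8% of Zeb1 cells and 76.3% of the rest, and in cluster 0 in 90.2% of Fn1 cells and 84.6% of the rest.

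In the Sox9con library Krt19 was found in 73.8% (70.1 to 77.3) of Fn1 cells and 85.0% (83.4 to 86.4) of the rest, and in 68.4% (54.8 to 80.1) against 82.9% (81.5 to 84.3) for Cdh2. Zeb1 cells overlapped with the rest, at 78.7% (73.8 to 83.0) against 83.2% (81.6 to 84.6), and Ncam1 cells were at 89.3% (82.5 to 94.2) against 82.3% (80.8 to 83.8). Epcam intervals lay apart for 1 of the 4 members, Fn1, at 81.8% (78.4 to 84.8) against 86.7% (85.2 to 88.0), and unthinned for 0. Within the 6 Sox9con clusters of that size the intervals lay apart in 0 of 22 comparisons with either marker. Whether the libraries differ in this was not tested.

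Counting how many of Zeb1, Fn1, Cdh2 and Ncam1 a thinned cell held, Krt19 was found in 84.3% of the 1026 Sox9cKO cells with 0, 74.7% of the 873 with 1, 56.2% of the 429 with 2 and 47.9% of the 121 with 3. The share of these cells in cluster 5 went from 5.65% to 20.4%, 43.8% and 73.6%. In the Sox9con library Krt19 was at 85.7%, 76.8% and 77.7% for 0, 1 and 2 members. Cdh1 was found in 93.4%, 92.0%, 89.0% and 85.1% of the Sox9cKO cells with 0 to 3.

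**Figure D5:**
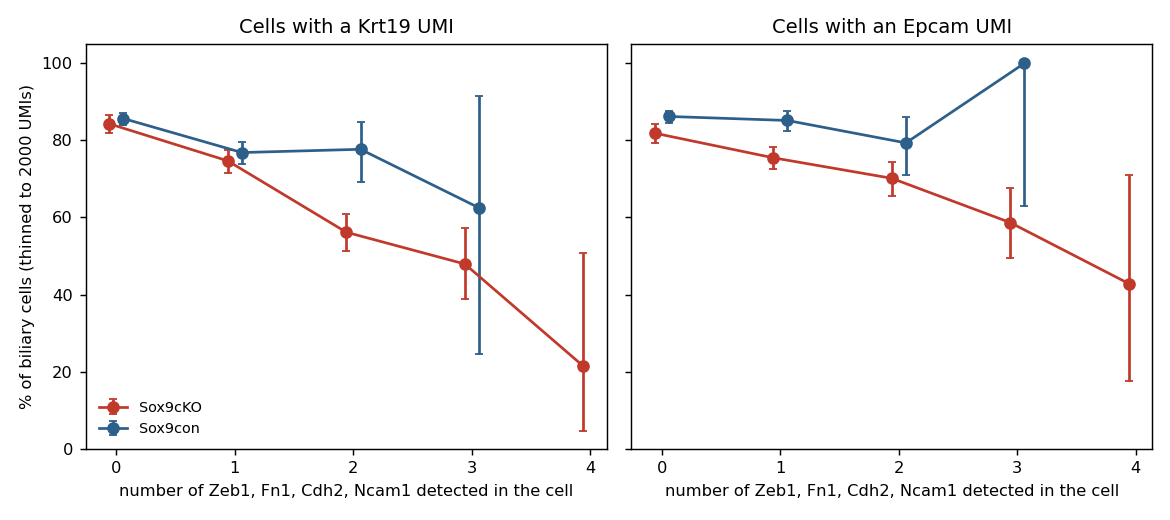
Share of thinned biliary cells (y axis, percent) with a Krt19 UMI (left) or an Epcam UMI (right) by how many of Zeb1, Fn1, Cdh2 and Ncam1 were detected in the cell (x axis), red for Sox9cKO and blue for Sox9con, with exact binomial intervals. In Sox9cKO cells Krt19 goes from 84.3% with 0 members to 47.9% with 3; the points for 4 in Sox9cKO and 3 in Sox9con rest on 14 and 8 cells.

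Other genes of the same pathways were taken from lists chosen with earlier results known. Of all genes of 200 UMIs, 2.18% were at least 2-fold higher and 1.8% at least 2-fold lower in the Sox9cKO library. Because of how the lists were chosen, nothing is read from their counts beside these shares. Of 23 genes of mesenchymal matrix and cytoskeleton, 8 reached 200 UMIs, of which 3 were at least 2-fold higher and 0 at least 2-fold lower in the Sox9cKO library, with a median log2 ratio of 0.81. Cald1, a regulator of actin and myosin, had a log2 ratio of 1.44 and the collagen gene Col5a1 one of 1.13, each higher in 20 of 20 pairs of wells. Mmp14 (-0.08) and Cd44 (0.09) were near 0. Of 13 other transition factors 4 reached 200 UMIs and none was past 2-fold, with Tcf3 at 0.67, Tcf4 at 0.11, Tcf12 at -0.05 and Zfp281 at -0.20. Of 15 regulators of the Snail and ZEB factors 14 were measured and none was past 2-fold, from Ctbp2 (-0.50) and Fbxl14 (-0.33) to Hdac2 (0.32) and Kdm1a (0.08).

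Of 27 measured junction genes 1 was at least 2-fold lower and 0 higher, with a median log2 ratio of -0.12. The tight junction claudins Cldn3 and Cldn7 were at -1.43 and -0.92, and the desmosome genes Ppl and Dsp at 0.60 and 0.56. Among 16 measured genes that maintain the epithelial state, Rab25 was at -1.06 and Foxa2 at -0.66, and Trps1 at 0.72 and Esrp1, a splicing factor of epithelia, at 0.17. Of 6 keratins Krt8 was at -0.86 and Krt20 at 1.59. Among 11 cadherin partners and sheddases Ctnna2 was at -2.56, Ctnna3 at -0.91, Adam10 at 0.33 and Hook1 at 0.25. Of 6 other cadherins none was past 2-fold, with Cdh13 at 0.72, Cdh4 at 0.31, Cdhr5 at 0.01 and Cdh17 at -0.53. Of 12 fibronectin receptors and assembly genes none was either, with the integrin Itgb6 at 0.72, Tgm2 at 0.56, Ilk at -0.25 and the syndecan Sdc1 at -0.37. In the Ncam1 family and its partners the kinase Fyn was at 1.24, Fgfr2 at -0.12, Fgfr1 at -0.36 and Chl1 at -0.83.

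Antisense genes overlap Zeb2 (Zeb2os), Fn1, Cdh2 and Ncam1 in the reference annotation, and Gm10125 and Gm16147 overlap Zeb1 on the other strand. Counting by strand is not given in the sources used here, so reads of a gene and its partner on the other strand cannot be told apart.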

How the data were processed

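Transcripts were counted by the authors with the Evercode Whole Transcriptome split-pool kit, per the labels' protocols. The deposited matrices hold counts of UMIs per gene and cell, not normalized, against the GRCm39 build, per the submitters' processing notes; aligner, counter and use of strand are not given in the sources used here. A deposited per-cell score and other cell annotations were read for wells and sublibraries and not as measurements. Cells were kept with at least 500 genes, 1000 UMIs and at most 15% mitochondrial UMIs, and clustered with scanpy 1.11.5 (2000 variable genes without the members, Epcam, Krt19 and Sox9; 30 components; Leiden resolution 0.5). Scrublet called 5 of 6362 cells (0.0786%) doublets, too few to have worked, so doublets may remain. A class needed 3 markers at 50 CPM, a level set after seeing the data, and 28 cells led by Fyb, Mctp1 and Dgki stayed unnamed.

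CPM are counts summed over cells, per 1000000 UMIs. Ratios have 0.5 counts added, with exact conditional intervals, and shares have Clopper-Pearson intervals (95%); UMI counts and cells of 1 library are not replicates, so no test was made. Named genes were the members, Epcam, Krt19 and Sox9, the 2 highest and 2 lowest genes of each list, and the 3 genes most like each member, some of which are not reported here. Members and lists were chosen with earlier results of these data known. Alternative scalings used edgeR 4.0.16 (TMM) and DESeq2 1.42.0. The ratio was tested on simulated data. Sequences and the coordinates printed with them come from GRCm38, another build than the files', and no coordinates are given in the files' build.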

Additional observations from a re-analysis of the deposited data

Results flagged for a closer look

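Zeb1 and Zeb2 were higher in the Sox9cKO library in biliary cells and lower in it in endothelial-like cells. The log2 ratios in endothelial-like cells were -0.38 for Zeb1 and -0.26 for Zeb2, with intervals on the opposite side of 0 from biliary cells. In biliary cells Zeb2 rested on 113 UMIs under Sox9cKO and 27 under Sox9con. Of the 113, 5 cells held 51, and 2 cells of cluster 1 with immune marker UMIs held 28 of them. For Zeb1 the interval in endothelial-like cells reached 0 without the cell of each library with the most Zeb1 UMIs (-0.20, -0.42 to 0.01), where 1 Sox9con cell held 95 of 550 UMIs, and thinned to 1000 UMIs it did so for both genes (-0.13 and -0.15). With the top 5% of Scrublet scores removed the ratios were -0.64 (-0.85 to -0.43) for Zeb1 and -0.45 (-0.71 to -0.19) for Zeb2. Thinned to 2000 UMIs they were -0.49 and -0.56. With the stricter cell filter Zeb1 was at -0.48 (-0.72 to -0.26) and Zeb2 at -0.21 (-0.50 to 0.08). The unthinned share of endothelial-like cells with a Zeb1 UMI was 81.9% under Sox9cKO and 78.3% under Sox9con. The difference between the cell types was not tested, since there is 1 library per genotype, and the endothelial-like wells overlapped.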

How the results depend on the processing

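The 5 members at least 2-fold higher in the Sox9cKO library were 3 over all kept cells, 3 without cluster 5 (chosen after seeing the data) and 2 at the lowest of the 8 sublibraries for each member, and 5 with each well left out. The 3 without cluster 5 include Zeb2. Of its 113 Sox9cKO UMIs 64 were in cluster 5 and 28 in 2 cells with immune marker UMIs. Zeb2 reversed over all kept cells (-0.37), Cdh2 without cluster 5 (-0.93) and Cdh1 at its highest sublibrary (0.038). Of all genes, 203 were at least 2-fold higher and 168 lower. TMM gave 242 and 117, and DESeq2 size factors 246 and 113. With a minimum of 20 UMIs they were 618 and 748, and with 100 UMIs 269 were lower. With each well left out 175 to 233 were higher and 113 to 386 lower, the 386 without D9. Unthinned, the 4 members whose Sox9cKO cells held Epcam less often became 0, the 1 (Fn1) in the Sox9con library 0, and the 2 for Krt19 in the Sox9con library 1, with Fn1 reversed for Epcam (1.01 and 0.532 percentage points). Without cluster 5 the 4 Sox9cKO members were 0 for Epcam and 1 for Krt19. In endothelial-like cells Zeb2 between the libraries was -0.21 (-0.50 to 0.08) with the stricter cell filter. The causes were not tested. The other counts were within 1.5 times under the alternatives run. Depth limits Snai1, Snai2, Vim and Zeb2 most. No paired analysis was possible because each genotype has 1 library.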
